A study of Homo sapiens with 9 samples.

Results

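The YAP and TEAD pathway is represented here by 10 genes chosen by name: 6 published target genes of the YAP-TEAD complex (CCN1, CCN2, ANKRD1, AMOTL2, AJUBA and LATS2), the coactivators YAP1 and WWTR1 (WWTR1 encodes TAZ), and the DNA-binding partners TEAD1 and TEAD2. All 10 were found by symbol among 62710 Ensembl genes of the count table, and all 10 were among the 23075 genes that passed the filter on low counts. The cells were H9, an established wild-type human embryonic stem cell line, so each library is a model of 1 line. All of them spent 72 h in pluripotency medium on silicone (PDMS) plates coated with Matrigel. They then spent 48 h in N2B27 medium with SB431542 and LDN, inhibitors that block the activin and BMP branches of SMAD signalling and steer the cells towards neuroepithelium. For a further 24 h in the same inhibitors the plates were held concave (3 libraries), held convex (3 libraries) or left flat (3 libraries, the controls). Poly(A) RNA was sequenced, and the libraries of each plate shape are numbered 1 to 3.

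Library totals lay between 49420082 and 64763412 counts. The labels give no meaning to a replicate number and do not name separate cultures, so that the p-values refer to the scatter among these 9 libraries, part of which could be technical. The libraries numbered 3 stood apart from those numbered 1 and 2 on every plate shape, and the flat library numbered 2 stood apart by transcript length. When genes were split into 4 classes of transcript length, those of the shortest class in that library lay at a median of 0.489 above their 9-library mean on the log2 scale, and those of the longest class at -0.477, while every other library lay within 0.147 of 0. YAP1 (5386 bases) and LATS2 (5511 bases) belong to the longest class. Of the neuroectoderm markers, SOX2 stood at 470 to 822 CPM (counts scaled to library size) and OTX2 at 257 to 318 CPM, both of which pluripotent cells express too. SIX3 stood at 22.4 to 200 CPM and HESX1 at 29.9 to 76.9 CPM, whereas PAX6 (1.09 to 7.10 CPM), SOX1 (1.47 to 4.91 CPM) and LHX2 (0.701 to 4.20 CPM) were low throughout.

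YAP and TAZ shuttle between cytoplasm and nucleus. When the Hippo kinases (MST1 and MST2, which act through LATS1 and LATS2) phosphorylate them they are held in the cytoplasm or degraded, and when cells are spread, stretched or under actomyosin tension they tend to enter the nucleus, bind TEAD factors and switch on genes such as CCN1 and CCN2. Because this control acts on the location of a protein, mRNA levels of YAP1, WWTR1 and the TEAD genes do not report it, and the target genes are the usual readout. Several targets feed back: LATS2, AJUBA and AMOTL2 encode regulators of YAP itself.

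TEAD factors recognise the sequence GGAATG. Both strands of RefSeq promoters (build GRCh38.p14) were searched for this motif alone, which reads CATTCC where it lies on the opposite strand. The table held 8 of the 10 genes, with none for CCN1 or TEAD1. The 250 bases before the transcription start are printed for the 4 target genes of that table that were higher in the libraries numbered 3, in the gene's direction, with each match in capitals. CCN2 lies at chr6:131951373-131951622, ANKRD1 at chr10:90921088-90921337, AMOTL2 (the start numbered 2) at chr3:134374448-134374697 and AJUBA (the start numbered 2) at chr14:22976843-22977092, all on the minus strand.
CCN2: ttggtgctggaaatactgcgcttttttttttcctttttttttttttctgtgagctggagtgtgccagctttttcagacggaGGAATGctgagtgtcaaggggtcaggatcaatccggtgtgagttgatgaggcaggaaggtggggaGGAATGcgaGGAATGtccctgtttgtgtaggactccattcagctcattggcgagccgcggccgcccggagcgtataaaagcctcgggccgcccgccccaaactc
ANKRD1: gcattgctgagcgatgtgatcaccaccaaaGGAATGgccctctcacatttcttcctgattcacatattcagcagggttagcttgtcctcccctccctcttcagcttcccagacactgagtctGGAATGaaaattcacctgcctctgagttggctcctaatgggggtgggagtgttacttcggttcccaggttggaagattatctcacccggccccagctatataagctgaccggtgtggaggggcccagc
AMOTL2: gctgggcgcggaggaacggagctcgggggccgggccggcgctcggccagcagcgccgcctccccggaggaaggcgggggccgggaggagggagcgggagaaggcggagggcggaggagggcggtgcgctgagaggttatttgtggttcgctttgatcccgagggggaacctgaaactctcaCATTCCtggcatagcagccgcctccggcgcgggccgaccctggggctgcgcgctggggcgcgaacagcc
AJUBA: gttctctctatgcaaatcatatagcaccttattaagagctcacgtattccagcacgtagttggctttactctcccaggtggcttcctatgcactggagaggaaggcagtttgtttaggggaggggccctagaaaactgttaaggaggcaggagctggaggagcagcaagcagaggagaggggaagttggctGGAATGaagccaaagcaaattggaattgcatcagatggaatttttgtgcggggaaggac

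CCN2 carried 3 matches, their first bases 169, 104 and 95 bases before the start. ANKRD1 carried 2, at 220 and 128 bases before it. AMOTL2 had 1 match on the opposite strand, 69 bases before the start numbered 2, and none before its other start. AJUBA had 1, 59 bases before the start numbered 2, and none before its other start. Among the remaining genes YAP1 had 1 match 162 bases before its start and LATS2 1 match 10 bases after its start, whereas the windows of WWTR1 and TEAD2 held none. Of 35116 promoters, 11.9% held at least 1 match in these 250 bases, 0.94% at least 2 and 0.0826% at least 3. A match is a run of letters, not a measured site, and a window without one says nothing about binding elsewhere.

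**Figure D1:**
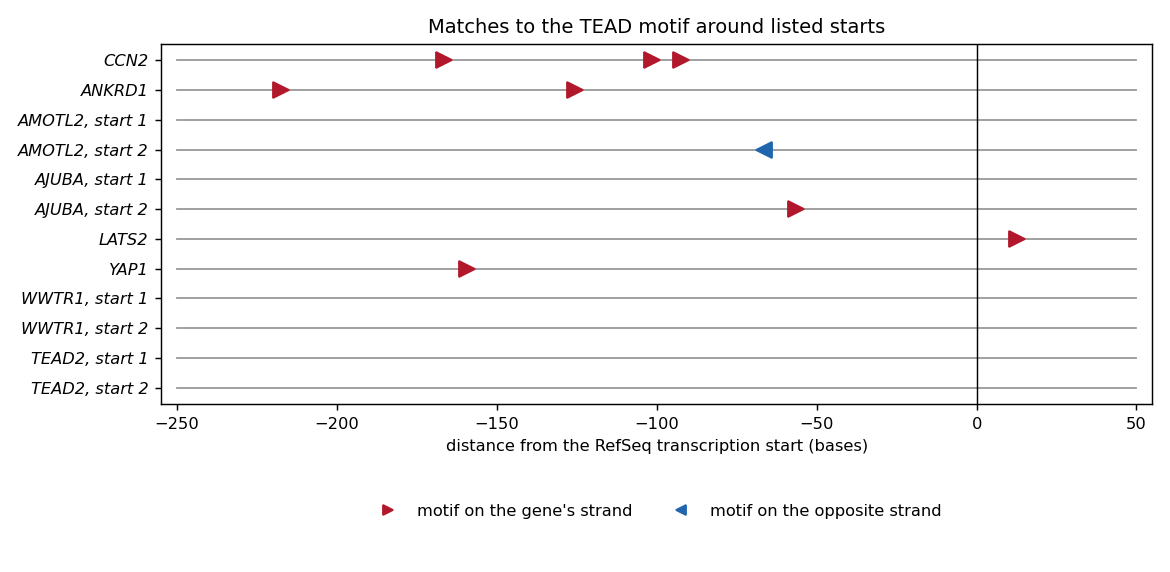
Matches to GGAATG around each listed RefSeq start, in bases from the start on the horizontal axis, with 1 line per start and arrows showing the strand of the match. CCN2 has 3 matches and ANKRD1 2 on the gene's own strand, and the windows of WWTR1 and TEAD2 have none.

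The study compared each curved plate with the flat one and the 2 curvatures with each other. For the target genes the mean level was higher on both curved plates than on the flat one in all 6 cases, but no difference passed the test. The fit had no term for replicate number, so the spread between numbers entered its SE. With number as a block, edgeR adjusted p-values of the 6 targets lay between 0.264 and 0.447 for convex over flat. For concave over flat they lay between 0.506 and 0.754. CCN1 and CCN2, secreted matricellular proteins and the standard YAP reporters, illustrate the spread between libraries. CCN1 (CYR61 in GENCODE v29; ENSG00000142871, chromosome 1, 85580761 to 85583962, plus strand) stood at 11.1, 16.4 and 71.5 CPM in concave libraries 1, 2 and 3, at 11.5, 21.2 and 73.2 CPM in convex libraries 1, 2 and 3, and at 16.1, 12.1 and 43.1 CPM in flat libraries 1, 2 and 3. Within each shape the library numbered 3 was far above the others, and the 3 shapes overlapped. Its means were 33.0 ± 33.5 CPM on concave, 35.3 ± 33.2 CPM on convex and 23.8 ± 16.9 CPM on flat plates (SD, n = 3 each). Neither difference passed the test, with log2 fold changes of 0.47 (SE 0.816, adjusted p = 0.923) for concave over flat and 0.57 (SE 0.816, adjusted p = 0.788) for convex over flat by edgeR's quasi-likelihood test. The sign of both turned when the curved library numbered 3 was left out. Such a fit has unequal replicate numbers between the shapes and no term for number. The concave value was -0.79 without concave library 3 and 1.22 without flat library 3. The convex value was -0.54 without convex library 3 and 1.30 without flat library 3. With number as a block and all 9 libraries kept, the values were 0.18 for concave and 0.34 for convex. With numbers 1 and 2 alone the concave value was -0.04.

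CCN2 (CTGF; ENSG00000118523, chromosome 6, 131948176 to 131951373, minus strand) had the same layout. It measured 4.64, 9.22 and 48.9 CPM in concave libraries 1, 2 and 3, 4.97, 11.5 and 54.2 CPM in convex libraries and 7.08, 6.06 and 26.2 CPM in flat libraries. The SD exceeded the mean on both curved plates, 20.9 ± 24.3 CPM on concave and 23.6 ± 26.7 CPM on convex plates, against 13.1 ± 11.4 CPM on flat plates. Its log2 fold changes were 0.67 (SE 1.00, adjusted p = 0.915) for concave and 0.84 (SE 1.00, adjusted p = 0.745) for convex over flat. Here too the sign turned in fits with unequal replicate numbers. It was -0.92 for concave without concave library 3 and -0.67 for convex without convex library 3, against 1.66 and 1.81 without flat library 3. With number as a block the values were 0.26 for concave and 0.46 for convex. In the settings other than leaving out 1 library, the lowest values were 0.07 for concave and 0.32 for convex.

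ANKRD1, a nuclear ankyrin-repeat protein of stretched muscle (ENSG00000148677, chromosome 10, 90912096 to 90921276, minus strand), was close to the floor of detection, at 5 to 46 reads per library. Concave libraries 1, 2 and 3 held 12, 22 and 32 reads, convex libraries 10, 11 and 46, and flat libraries 5, 7 and 12. In CPM these were 0.175, 0.337 and 0.663 on concave plates, 0.147, 0.171 and 0.810 on convex plates and 0.0859, 0.147 and 0.210 on flat plates. The groups overlapped, and with all libraries in the fit these few reads gave the largest fold changes among the 10 genes: log2 1.38 (SE 0.786, adjusted p = 0.841) for concave and 1.32 (SE 0.784, adjusted p = 0.537) for convex over flat. With 1 library left out the concave value ran from 0.78 (without concave library 3) to 1.73 (without concave library 1). The convex value ran from 0.11 (without convex library 3) to 1.70 (without convex library 1), and was 0.45 with numbers 1 and 2 alone.

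AMOTL2, an angiomotin-family junction protein that binds and restrains YAP (ENSG00000114019, chromosome 3, 134355874 to 134375479, minus strand), showed 20.1, 19.1 and 34.6 CPM in concave libraries 1, 2 and 3, 12.4, 24.1 and 55 CPM in convex libraries, and 12.1, 12.4 and 27.6 CPM in flat libraries. Its log2 fold change over flat was 0.50 on concave plates (SE 0.513, adjusted p = 0.864) and 0.81 on convex plates (SE 0.514, adjusted p = 0.554). These values were 0.18 for concave without concave library 3 and 0.08 for convex without convex library 3, against 1.00 and 1.29 without flat library 3. AJUBA, a LIM-domain adaptor that inhibits LATS kinases (ENSG00000129474, chromosome 14, 22971174 to 22982642, minus strand), measured 44.1, 48.2 and 70.7 CPM on concave plates, 43.1, 56.4 and 85.2 CPM on convex plates and 47.3, 40.7 and 58.5 CPM on flat plates. For both genes the library numbered 3 was the highest of its shape, and the shapes overlapped. The log2 fold change of AJUBA over flat was 0.15 on concave plates (SE 0.272, adjusted p = 0.925) and 0.33 on convex plates (SE 0.272, adjusted p = 0.627). LATS2, the kinase that phosphorylates YAP and is itself a YAP target (ENSG00000150457, chromosome 13, 20973032 to 21061547, minus strand), measured 21.6, 21.8 and 23.6 CPM on concave plates, 25.4, 21.3 and 33.5 CPM on convex plates, and 22.3, 10.2 and 27.3 CPM on flat plates. Its log2 fold change over flat was 0.16 on concave plates (SE 0.314, adjusted p = 0.934) and 0.42 on convex plates (SE 0.315, adjusted p = 0.599). The lowest value was that of flat library 2, in which long transcripts as a whole were low. Without that library the log2 fold change of LATS2 over flat was -0.15 on concave plates (adjusted p = 1.0) and 0.10 on convex plates (adjusted p = 0.989), so the direction for concave plates depended on it.

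Neither coactivator passed the test between shapes. YAP1 (ENSG00000137693, chromosome 11, 102110461 to 102233423, plus strand) had 78.3, 74.6 and 75.7 CPM in concave libraries 1, 2 and 3, 79.6, 74.2 and 96.1 CPM in convex libraries and 65.1, 38.5 and 98.6 CPM in flat libraries. Apart from convex library 3, the curved libraries lay between 74.2 and 79.6 CPM, and the flat ones held both the lowest and the highest value of all 9. The lowest was that of flat library 2. Without that library the log2 fold change of YAP1 for concave over flat was -0.10. WWTR1 (ENSG00000018408, chromosome 3, 149517235 to 149736714, minus strand) had 6.75, 4.97 and 7.23 CPM on concave plates, 5.19, 5.53 and 9.47 CPM on convex plates, and 5.75, 5.20 and 7.39 CPM on flat plates. Log2 fold changes over flat were 0.18 (adjusted p = 0.916) on concave and 0.31 (adjusted p = 0.663) on convex plates for YAP1, and 0.05 (adjusted p = 0.987) and 0.14 (adjusted p = 0.865) for WWTR1, concave first.

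TEAD1 (ENSG00000187079, chromosome 11, 12674591 to 12944483, plus strand) was the one gene whose groups did not overlap in a shape comparison. It stood at 110, 114 and 69.6 CPM in concave libraries 1, 2 and 3, at 118, 108 and 112 CPM in convex libraries, and at 76.9, 49.6 and 96.4 CPM in flat libraries. All 3 convex libraries lay above all 3 flat ones, as did those of 16.7% of the genes tested in one direction or the other. Its means were 113 ± 5.14 CPM on convex and 74.3 ± 23.5 CPM on flat plates (SD, n = 3 each), a log2 fold change of 0.60 (SE 0.253) with an adjusted p of 0.513 by edgeR. Without flat library 2 the log2 fold change fell to 0.37 (adjusted p = 0.985). On concave plates the log2 fold change over flat was 0.40 (SE 0.253, adjusted p = 0.841), and the groups overlapped. For concave over flat 0 of the 10 genes were without overlap, against 6.73% of all genes tested, and for concave over convex 0 of the 10, against 3.56%. TEAD2 (ENSG00000074219, chromosome 19, 49340595 to 49362457, minus strand), known in the mouse for early embryonic and neural progenitor expression, had 145, 167 and 179 CPM on concave plates, 161, 179 and 142 CPM on convex plates and 186, 180 and 163 CPM on flat plates. It was the one gene with a lower mean on both curved plates, by log2 fold changes of -0.11 (adjusted p = 0.912) for concave and -0.13 (adjusted p = 0.737) for convex over flat. CD37 overlaps its exons on the opposite strand and held 46 to 1454 reads per library, against 8064 to 11580 for TEAD2. Whether counting used strand is not stated, so how reads from the overlap of that pair were assigned is not known.

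**Figure D2:**
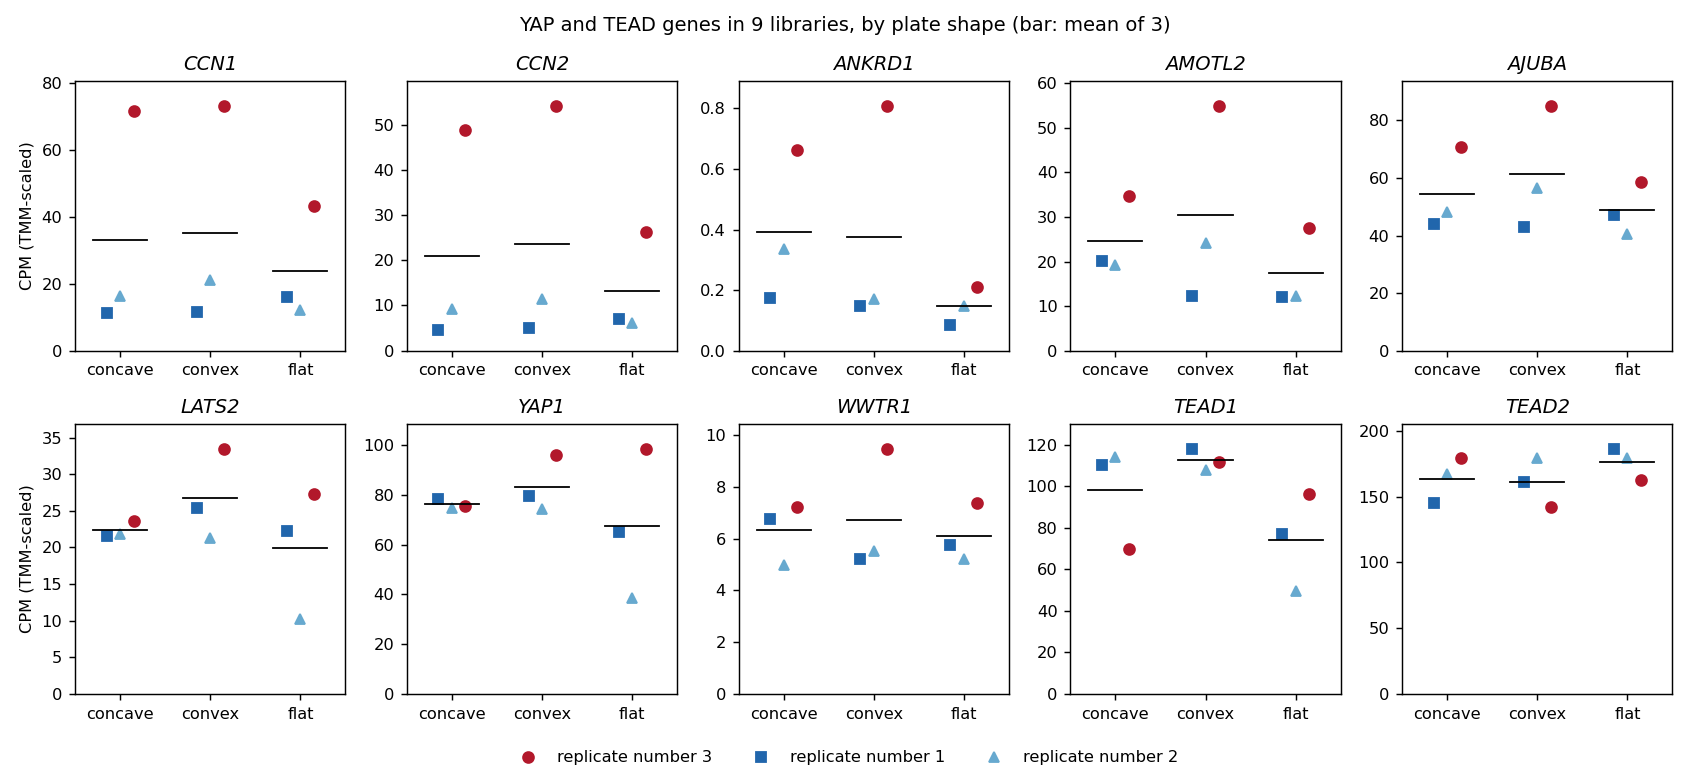
CPM (scaled by TMM) of the 10 genes in each of the 9 libraries, by plate shape, on linear axes that start at 0, with the marker giving the replicate number and the bar the mean of 3. The red points of the libraries numbered 3 stand above the blue ones for CCN1, CCN2, AMOTL2 and AJUBA on all 3 shapes, and for TEAD1 all convex points lie above all flat ones.

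In the fits across all genes, 0 of the 10 were called at an adjusted p under 0.05 for concave over flat, for convex over flat, for concave over convex or by the F test over the 3 shapes. The same fits called 0.0% of all 23075 genes in each case. At an unadjusted p under 0.05, edgeR listed 1047 genes (4.54%) for concave over flat, 2135 (9.25%) for convex over flat, 65 (0.282%) for concave over convex and 897 (3.89%) by the F test. Among the 10, TEAD1 for convex over flat was the one with an unadjusted p under 0.05. DESeq2 called 0 genes for concave over flat, 1 gene, not of these 10, for convex over flat, and 0 in the other tests. Of the 10 genes, 9 had a log2 fold change above 0 in each comparison with flat, with a median of 0.29 for concave (0.014 over all genes tested) and 0.50 for convex (0.007 over all genes tested). Both comparisons share the 3 flat libraries, flat library 2 among them. For concave over convex 8 of the 10 genes were below 0, with a median log2 fold change of -0.15 and adjusted p-values of 1.0. In bulk RNA a smaller share of cells with a transcript and less of it per cell cannot be told apart.

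Set within a replicate number, the curvature differences of CCN1 and CCN2 were not of one sign. For CCN1 the log2 ratio of concave to flat was -0.53, 0.44 and 0.73 in numbers 1, 2 and 3, and that of convex to flat was -0.48, 0.81 and 0.76. For CCN2 the concave ratios were -0.61, 0.60 and 0.90 and the convex ratios -0.51, 0.93 and 1.05. In number 1 both genes were lower on the curved plates, and in numbers 2 and 3 both were higher. ANKRD1 and AMOTL2 were higher on curved plates in every number. The ratios of AMOTL2 were 0.73, 0.63 and 0.33 on concave plates and 0.04, 0.96 and 1.00 on convex plates, and those of ANKRD1 lay between 0.21 and 1.95. For concave over flat these were the 2 genes of the 10 with one direction in all 3 numbers, against 23.8% of all genes tested. For convex over flat LATS2 and TEAD1 were higher and TEAD2 lower in all 3 numbers as well, which makes 5 of 10, against 49.6% of all genes tested. TEAD2 entered with a log2 ratio of only -0.002 in number 2.

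YAP1 and TEAD1 showed another layout. The log2 ratio of concave to flat for YAP1 was 0.27, 0.95 and -0.38 in numbers 1, 2 and 3, and that of convex to flat was 0.29, 0.95 and -0.04. For TEAD1 the concave ratios were 0.52, 1.20 and -0.47 and the convex ratios 0.62, 1.12 and 0.21. The widest ratio of both genes was that of number 2, whose flat library is the one that stood apart by transcript length. In that number LATS2 also had its widest ratios, 1.09 for concave and 1.06 for convex plates. By the lengths used here YAP1 and LATS2 belong to the longest class, which starts at 4771 bases, but TEAD1, at 3075 bases, does not. The part of transcript length in these ratios was not tested.

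**Figure D3:**
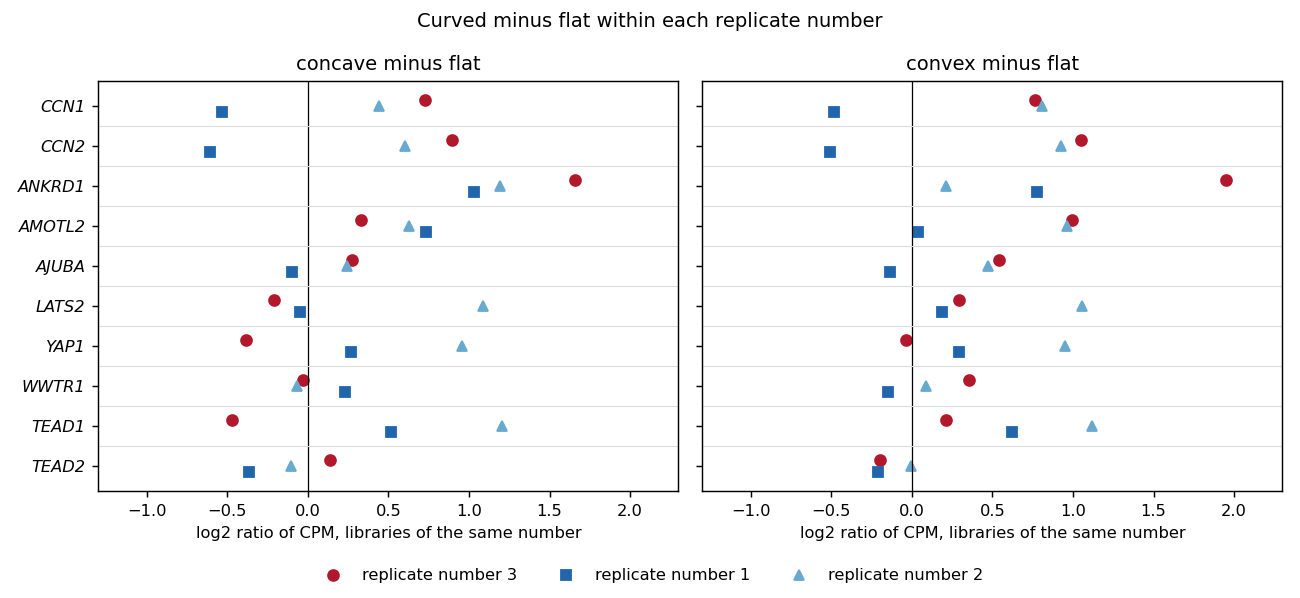
Log2 ratio of CPM, concave to flat (left) and convex to flat (right), for libraries that share a replicate number, 1 point per number, with the vertical line at no difference. CCN1 and CCN2 fall below 0 in number 1 and above it in numbers 2 and 3, whereas ANKRD1 and AMOTL2 lie above 0 throughout.

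A test of whether the curved-to-flat difference depended on replicate number took concave and convex libraries of a number as 2 replicates, beside 1 flat library per number. It was added after the values had been seen, so it describes a pattern already noticed, and it has no replicate of the flat plate within a number. Leaving out a flat library drops its whole number from the test. Such a fit compares only the remaining numbers, so it cannot show whether the pattern over all 3 rests on that library. It called CCN1 (adjusted p = 0.0232), CCN2 (0.0187) and YAP1 (0.0312), 3 of the 10, against 8.88% of all genes tested. Without flat library 2 the adjusted p-values were 0.343, 0.267 and 0.569 in the same order, and 1 gene in all was called against 2048 with every library. Without flat library 1 they were 0.796, 0.62 and 0.0103. All 3 calls were lost without concave library 1 (0.0892, 0.0798 and 0.0879) or concave library 2 (0.0575, 0.0504 and 0.132). Convex library 1 had the same effect when left out (0.0673, 0.0533 and 0.0702), and YAP1 was also lost without flat library 3 (0.138) or convex library 2 (0.0874). Without flat library 3 or convex library 2 the adjusted p for CCN1 was 0.0549 and 0.0514. LATS2 and TEAD1 were called without concave library 3, flat library 1 or convex library 3, and AJUBA without concave library 3. Each of these fits called a larger share of all genes tested than the 8.88% with every library. Without concave or convex library 3, number 3 holds a single curved library, so the spread within that number has no estimate. Both LATS2 (0.0227) and TEAD1 (0.00685) were called by DESeq2, which called 3256 of 23075 genes. They were called without the filter as well (0.000503 and 3.75e-06), beside 4767 of 41037 genes.

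The clearest contrast of the target genes ran along replicate number. This split was chosen with earlier results of these data known, so its p-values describe a size and are no independent support. Of the 10 genes, 5 were called higher in the 3 libraries numbered 3 than in the 6 numbered 1 and 2, with plate shape as a term in the fit, and 0 were called lower. Over all genes tested, 17.9% were called, 8.79% higher and 9.14% lower (2028 and 2109 genes, or 1478 and 2816 when scaled by library size alone). All 5 were targets: CCN2, CCN1, ANKRD1, AMOTL2 and AJUBA. CCN2 averaged 43.1 ± 14.9 CPM in number 3 (SD, n = 3) and 7.25 ± 2.66 CPM in numbers 1 and 2 (SD, n = 6). That is a log2 fold change of 2.57 (SE 0.243), or 5.93-fold, with an adjusted p of 0.000467 by edgeR. CCN1 averaged 62.6 ± 16.9 CPM in number 3 and 14.7 ± 3.91 CPM in numbers 1 and 2, a log2 fold change of 2.08 (SE 0.212, 4.22-fold, adjusted p = 0.00061). In both genes even the lowest library numbered 3, which was flat, lay above all 6 of the others.

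AMOTL2 averaged 39.1 ± 14.2 CPM in number 3 and 16.7 ± 5.13 CPM in numbers 1 and 2 (log2 fold change 1.22, SE 0.197, adjusted p = 0.00421). AJUBA averaged 71.5 ± 13.4 CPM in number 3 and 46.6 ± 5.52 CPM in numbers 1 and 2 (log2 fold change 0.60, SE 0.130, adjusted p = 0.0140). The groups did not overlap for either. ANKRD1 averaged 0.561 ± 0.313 CPM in number 3 and 0.177 ± 0.0847 CPM in numbers 1 and 2, with a log2 fold change of 1.63 (SE 0.385, adjusted p = 0.0206). Here flat library 3, with 12 reads, lay within the range of the 6 others. LATS2 was the target that was not called (28.1 ± 4.99 CPM in number 3, 20.4 ± 5.21 CPM in numbers 1 and 2; log2 fold change 0.49, SE 0.195, adjusted p = 0.119). Its lowest value (10.2 CPM) was that of flat library 2, in which long transcripts as a whole were low and which belongs to number 2. The median log2 fold change of the 6 targets was 1.42, beside 0.009 over all genes tested.

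The coactivators and TEAD factors did not pass the test. WWTR1 averaged 8.03 ± 1.25 CPM in number 3 and 5.57 ± 0.642 CPM in numbers 1 and 2, without overlap, and came close to the threshold (log2 fold change 0.53, SE 0.160, adjusted p = 0.0513). Together with CCN1, CCN2, AMOTL2 and AJUBA this made 5 of the 10 genes without overlap, all higher in number 3, against 11.7% of all genes tested without overlap and higher (12.5% lower). YAP1 averaged 90.1 ± 12.5 CPM in number 3 and 68.4 ± 15.5 CPM in numbers 1 and 2 (log2 fold change 0.44, SE 0.190, adjusted p = 0.147). Its lowest value (38.5 CPM) was again that of flat library 2, in which long transcripts were low. With 1 library left out the log2 fold change of YAP1 ran from 0.13 to 0.63. TEAD1 (log2 fold change 0.01, SE 0.224, adjusted p = 0.991) and TEAD2 (-0.07, SE 0.126, adjusted p = 0.730) stayed within the spread between libraries.

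CCN1 and CCN2 were called with any 1 library left out, with adjusted p-values of at most 0.0137 for CCN1 and 0.0122 for CCN2. The other 3 calls depended on single libraries. AMOTL2 was lost without convex library 3 (adjusted p = 0.0546), and AJUBA without concave library 1 (0.0572), convex library 1 (0.0601) or convex library 3 (0.135). ANKRD1 was lost without any of 5 libraries: concave library 1 (0.0727), concave library 3 (0.069), convex library 1 (0.0835), convex library 2 (0.0723) or convex library 3 (0.216). WWTR1 was called without flat library 2 (0.03), and LATS2 without concave library 2 (0.029). DESeq2 also called WWTR1 (0.0218), as did limma voom (0.0498), DESeq2 size factors (0.0479) and a fit with no term for plate shape (0.0371). An F test over the 3 numbers called CCN1 (adjusted p = 0.00203), CCN2 (0.00158), AMOTL2 (0.0126) and AJUBA (0.0386), 4 of the 10, against 11.8% of all genes tested, and gave 0.0504 for ANKRD1. In that test AMOTL2 was lost without convex library 3 (0.117), AJUBA without concave library 1 (0.146), concave library 3 (0.111), convex library 1 (0.134), convex library 2 (0.096) or convex library 3 (0.27), and ANKRD1 was called without flat library 2 (0.0257). AJUBA was lost when scaled by library size alone (0.0738), and ANKRD1 was called by DESeq2 (0.0259), with DESeq2 size factors (0.0485) and without the filter (0.0248). Between numbers 2 and 1, 0 of the 10 genes were called, against 0.0% of all genes by edgeR. At an unadjusted p below 0.05 edgeR listed 1970 genes (8.54%), and DESeq2 called 136. CCN2 had the smallest unadjusted p of the 10 in that comparison, with a log2 fold change of 0.61 (SE 0.299, adjusted p = 0.605).

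Other cell markers and the mitochondrial share of counts differed with replicate number. The counts of markers stand beside 8.79% of all genes tested called higher in number 3 and 9.14% called lower. All 6 pluripotency markers were tested and 5 were called higher, and their summed level was 3321 to 3453 CPM in number 3, against 2133 to 2486 CPM in numbers 1 and 2, although NANOG stayed under 1 CPM in every library. The largest part of that sum was LIN28A (1793, 1641 and 1760 CPM in the concave, convex and flat libraries numbered 3). LIN28A was the marker not called (edgeR adjusted p = 0.452). All 7 early neuroectoderm markers were tested and 4 were called lower, with summed levels of 794 to 965 CPM in number 3 and 1158 to 1321 CPM in numbers 1 and 2. Of 6 fibroblast and mesenchyme markers 3 were tested and 2 were called higher (summed 1048 to 1520 CPM in number 3, 623 to 1177 CPM in numbers 1 and 2), while COL3A1, DCN and LUM stayed under 1 CPM in every library. Most of that sum in number 3 was COL1A1 (1134, 1401 and 912 CPM in the concave, convex and flat libraries). Of 5 amnion and trophectoderm markers 3 were tested and 2 were called higher (38.9 to 43.5 CPM in number 3, 18.9 to 32.2 CPM in numbers 1 and 2), with ISL1 and HAND1 under 1 CPM throughout. Here most of the sum in number 3 was KRT7 (37.1, 32.2 and 32.9 CPM in the concave, convex and flat libraries). Of 5 mesendoderm markers 3 were tested and 2 were called higher (7.14 to 12 CPM in number 3, 0.789 to 1.67 CPM in numbers 1 and 2). Most of that sum in number 3 was FOXA2 (5.90, 10.5 and 5.13 CPM in the concave, convex and flat libraries), and MIXL1, EOMES and SOX17 stayed under 1 CPM throughout. Of 5 endothelial and blood markers 4 were tested, and 1 was called higher and 2 lower (71.6 to 93.4 CPM in number 3, 23.1 to 43.7 CPM in numbers 1 and 2). That sum was nearly all KDR (70.0, 92.0 and 79.5 CPM in the concave, convex and flat libraries numbered 3), while PECAM1 (log2 fold change -1.53, adjusted p = 0.00695) and CDH5 (-2.04, adjusted p = 0.000756) were lower and PTPRC stayed under 1 CPM throughout. Of 6 non-neural ectoderm markers 4 were tested and 1 was called higher (628 to 716 CPM in number 3, 402 to 802 CPM in numbers 1 and 2), with TFAP2A, GATA3 and DLX5 under 1 CPM throughout. Mitochondrial genes took 10.5%, 9.33% and 7.63% of counts in the concave, convex and flat libraries numbered 3, against 5.7% to 8.0% in the 6 others, and within each shape number 3 was the highest. The part of these cell types and of the mitochondrial share in the levels of CCN1, CCN2 and the other targets was not tested. Between plate shapes the summed levels of all 7 lists overlapped.

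Wider pathway genes were read from 3 lists, beside the same backgrounds. None of their tested members was called by edgeR in a shape comparison. Of 21 Hippo kinases, adaptors and upstream regulators, 2 were higher in number 3 and 0 lower, a share close to that of all genes tested (8.79% higher). The median log2 fold change of the list was 0.25. The called genes were WWC1 (KIBRA), a scaffold upstream of the kinases (26.7 to 28.9 CPM in number 3, 13.2 to 18.4 CPM in numbers 1 and 2; log2 fold change 0.80, SE 0.122, adjusted p = 0.00329), and WTIP, a LIM adaptor of the AJUBA family (0.71, SE 0.160, adjusted p = 0.0173). WTIP was lost without concave library 1 (0.076), concave library 3 (0.0957), convex library 1 (0.0683), convex library 2 (0.0683) or convex library 3 (0.133). SAV1, the scaffold of the MST kinases (log2 fold change 0.30, adjusted p = 0.178), LIMD1, another AJUBA-family adaptor (0.34, adjusted p = 0.0633) and WWC2, a relative of WWC1 (0.86, adjusted p = 0.0931) were not called. LIMD1 was called without flat library 2 (0.0278), and WWC2 without flat library 2 (0.0162) or concave library 2 (0.0225) and by DESeq2 (0.0177). WWC2 was lowest in flat library 2 (13.8 CPM), and without that library its log2 fold change was 0.57.

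Of 6 other TEAD factors and cofactors, 4 passed the filter and 1 was higher in number 3. TEAD4 measured 33.1, 35.6 and 28.1 CPM in the concave, convex and flat libraries numbered 3, against 12.8 to 19.0 CPM in the 6 others (log2 fold change 0.98, SE 0.135, adjusted p = 0.00217). Its groups did not overlap. TEAD3 (0.37, adjusted p = 0.0802) and the TEAD-binding cofactors VGLL3 (0.80, adjusted p = 0.0642) and VGLL4 (-0.13, adjusted p = 0.75), of which VGLL4 competes with YAP, were not called. TEAD3 was called without flat library 3 (0.0381), and VGLL3 without concave library 2 (0.0123) or concave library 3 (0.0249) and by DESeq2 (0.0112).

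Of 17 further published YAP and TAZ targets, 15 passed the filter. In number 3, 6 were higher and 3 lower, with a median log2 fold change of 0.33, so these targets did not move one way. DOCK5, a Rac exchange factor (16.2, 26.4 and 15.6 CPM in the concave, convex and flat libraries numbered 3, against 3.85 to 10.4 CPM in the others; log2 fold change 1.24, SE 0.194, adjusted p = 0.00367) and F3, which encodes tissue factor (1.01, SE 0.193, adjusted p = 0.00872), were higher. TGFB2, a TGF-beta ligand, was lower, at 6.48, 4.82 and 10.9 CPM in the concave, convex and flat libraries numbered 3 against 21.2 to 56.0 CPM in the others (log2 fold change -2.20, SE 0.291, adjusted p = 0.00177). CCDC80, a secreted matrix protein (-1.05, SE 0.149, adjusted p = 0.00237), and FJX1, the human relative of fly four-jointed (-0.94, SE 0.169, adjusted p = 0.00683), were lower too. Without convex library 3, the calls of DOCK5 (0.052), F3 (0.0862) and FJX1 (0.067) were lost, and 1 higher and 2 lower calls were left of the 9. Without concave library 1, 3 higher and 3 lower calls were left.

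**Figure D4:**
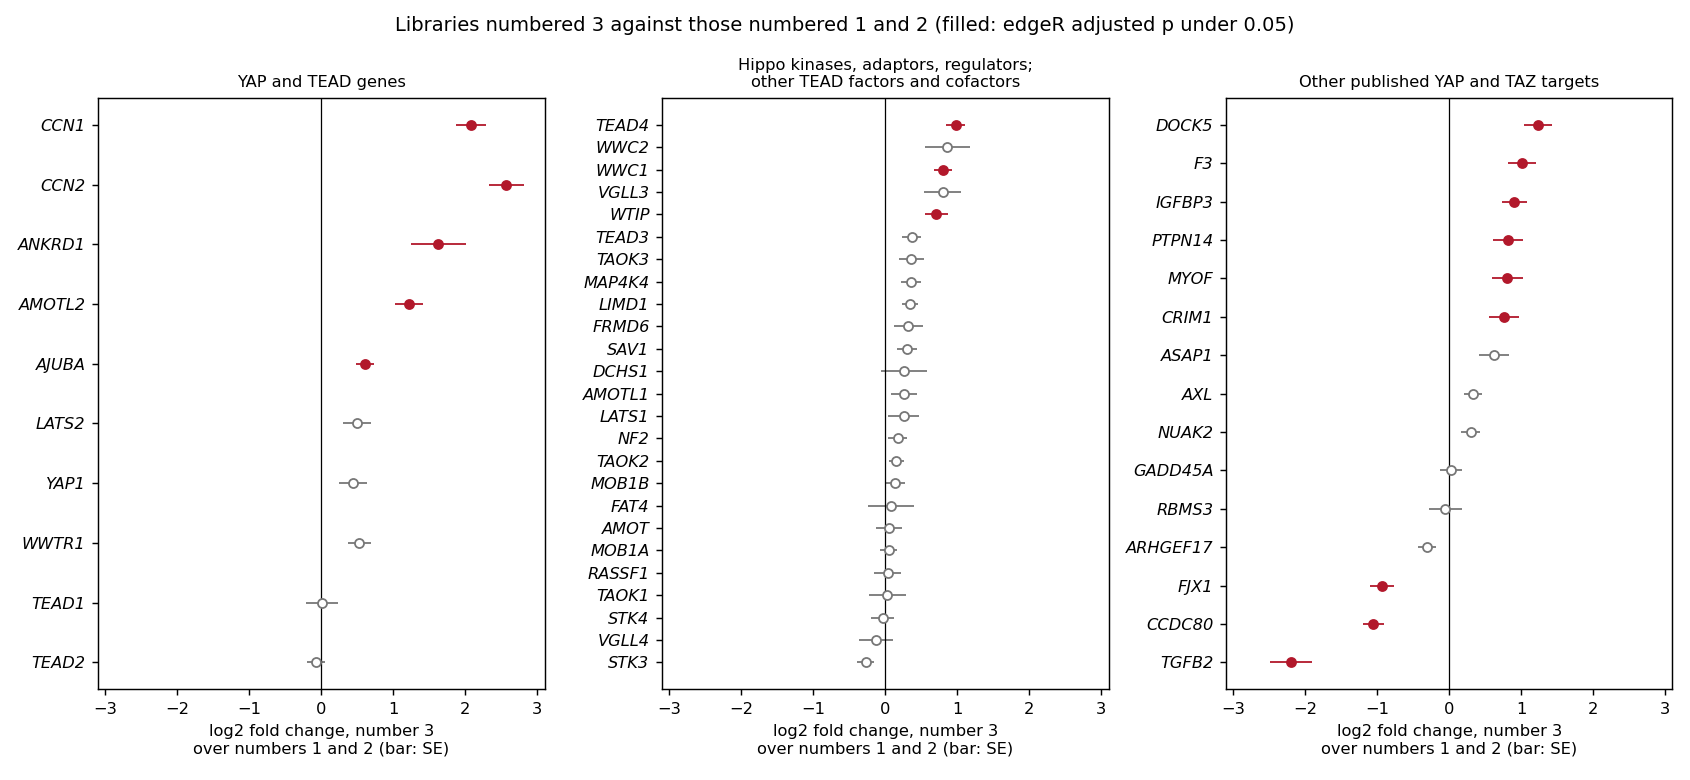
Log2 fold change of the libraries numbered 3 over those numbered 1 and 2 (horizontal axis, bars are the SE) for the 10 genes, for the Hippo regulators with the other TEAD factors and cofactors, and for further published targets; filled points have an edgeR adjusted p under 0.05. CCN1 and CCN2 lie beyond 2, TEAD1 and TEAD2 near 0, and the further targets spread to both sides, with TGFB2 at -2.20.

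Levels were also set on a per-length scale (CPM per kilobase of transcript), on which genes can be ranked against each other. The length of a gene was the median over its transcripts marked principal in GENCODE v29, or over all its transcripts where none was marked. It is 3075 bases for TEAD1 and 2103 for WWTR1, and another choice of transcript could change the ranks, ratios and shares. The median over 9 libraries was highest for TEAD2 (77.4), followed by TEAD1 (35.1), AJUBA (14.1), YAP1 (14.1), CCN1 (7.15), AMOTL2 (4.47), LATS2 (4.05), CCN2 (3.94), WWTR1 (2.74) and ANKRD1 (0.0885). TEAD2 and TEAD1 did not overlap in their ranges over the 9 libraries, nor did WWTR1 and ANKRD1. All other neighbours in this order overlapped. The order differed in number 3, where CCN1 (31.2, 32.0 and 18.8 in the concave, convex and flat libraries) lay above AJUBA (20.7, 24.9 and 17.1) and YAP1 (14.1, 17.8 and 18.3) in all 3 libraries. YAP1 exceeded WWTR1 by 2.89 to 5.98 times per length in the 9 libraries, the lowest ratio being that of flat library 2. In CPM, without the length, their means over the 9 libraries were 75.6 and 6.39. Of the 10 genes CCN2 had the largest fold change between numbers, and its per-length level was 20.9, 23.2 and 11.2 in the concave, convex and flat libraries numbered 3, against 1.99 to 4.92 in the 6 others.

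Among the 4 TEAD genes, TEAD2 made up 46.8% to 67.9% of the summed per-length level and TEAD1 13.2% to 29.3%. TEAD4 held 13.8%, 15% and 12.1% in the concave, convex and flat libraries numbered 3, against 6.18% to 9.2% in the 6 others. The share of TEAD4 in number 3 was thus above that of every other library, while TEAD2 remained the most abundant TEAD transcript in all 9.

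**Figure D5:**
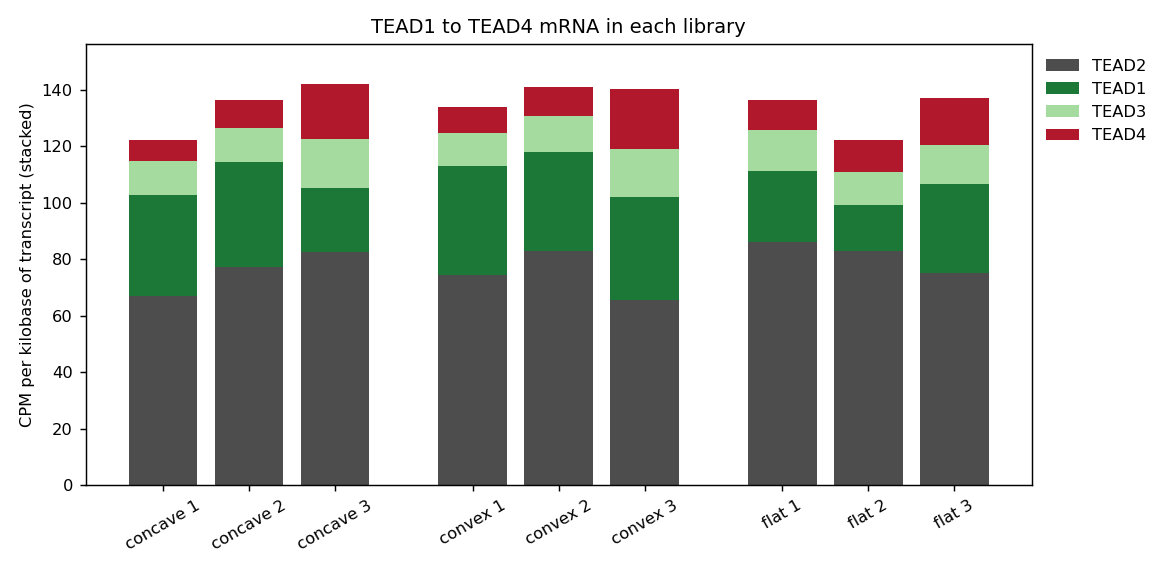
Stacked CPM per kilobase of transcript of TEAD2, TEAD1, TEAD3 and TEAD4 in each library, on an axis that starts at 0. TEAD2 is the largest block in all 9 libraries, and the TEAD4 block is widest in the libraries numbered 3.

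The profiles of CCN1 and CCN2 over the 9 libraries were close to each other, with a root mean square difference of 0.228 in centred log2(CPM + 1). The tested genes outside the 10 with the profile nearest to CCN1, among those averaging at least 5 CPM, were RGS5, a regulator of G protein signalling (0.208), TAGLN, which encodes the actin-binding protein transgelin (0.212), and the chemokine CXCL5 (0.236). For CCN2 the nearest were TAGLN (0.306) and RGS5 (0.319). TAGLN measured 51.7, 63.7 and 39.3 CPM in the concave, convex and flat libraries numbered 3, against 8.72 to 18.1 CPM in the 6 others. Among the other targets AMOTL2 was nearest to CCN1 (0.51) and LATS2 farthest (0.841), and TEAD1 was the farthest of all 10 from both CCN1 (1.08) and CCN2 (1.28). These distances are a description over 9 libraries that share their replicate numbers.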

How the data were processed

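The authors deposited unnormalised read counts for each gene. Per the submitters' processing notes HISAT2, featureCounts and the GRCh38 build were used; for their versions, the annotation and the strand option the sources used here give nothing. Names matched 62639 of 62710 gene IDs, and 58274 had a length in GENCODE v29. All 9 count columns were used, and there were 0 others. In R 4.3.3, edgeR 4.0.16 fitted quasi-likelihood models with robust dispersion (TMM scaling, filterByExpr) to all genes, 1 with plate shape (biological coefficient of variation 0.329) and 1 with shape and number (0.217). A gene was called at a Benjamini-Hochberg adjusted p under 0.05 over the 23075 genes tested, and tests were two-sided. The 8 families of tests were adjusted separately. Fits were tested on simulated data. DESeq2 1.42.0 and limma 3.58.1 (voom) served as alternatives, as did other scalings, other filters and leaving out each library.

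The 10 genes, the lists and the contrasts by number were chosen with earlier results of these data known. Named pathway genes are up to 5 per list with the smallest p over the numbers; profile neighbours are the 3 nearest genes averaging at least 5 CPM, of which 1 is not reported here. Deviations from the shape means were correlated between libraries of one number: r was 0.348, 0.378 and 0.600 for convex and flat, 0.557, 0.275 and 0.592 for concave and convex, and 0.358, 0.0145 and 0.321 for concave and flat. The numbers therefore counted as pairs (every r over 0.1) for the first 2 and not for concave and flat. The main fits between shapes had no term for number in any of the 3 comparisons, and a fit with number as a block served as an alternative.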

Additional observations from a re-analysis of the deposited data

Results flagged for a closer look

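CCN1, CCN2 and YAP1 are listed for their curved-to-flat values by replicate number. CCN1 and CCN2 were lower on curved than on flat plates in number 1 and higher in numbers 2 and 3, while YAP1 was higher in numbers 1 and 2 and lower in number 3. A test of the difference between numbers gave edgeR adjusted p-values of 0.0232 for CCN1, 0.0187 for CCN2 and 0.0312 for YAP1. It is no independent support: it was added after these values had been seen, it takes concave and convex libraries as replicates of each other, and each number holds a single flat library. A fit without flat library 2 drops number 2 and compares numbers 1 and 3 only. All 3 calls were lost without flat library 2 (0.343, 0.267 and 0.569), among other libraries named with the results, and the cause was not tested.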

How the results depend on the processing

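No gene was called between plate shapes under any setting except 1 for convex over flat by DESeq2. With number as a replicate block, 0 genes were called in every shape comparison and no call among the 10 genes changed. For convex over flat, 4222 genes then had an unadjusted edgeR p under 0.05, against 2135 without the block. For concave over flat these counts were 2046 and 1047. Of 2714 genes called over the 3 numbers, the count became 4087 without the filter, 4465 by DESeq2 and 352 to 4999 with 1 library left out. For number 3 over 1 and 2, it ran from 1077 (without convex library 3) to 5575. Scaling by library size alone moved the median of all genes there to -0.0919 and the split to 1478 higher and 2816 lower, against 2028 and 2109; the 5 target calls stayed. Between numbers 2 and 1, counts were 1 with DESeq2 size factors, 108 without the filter, 136 by DESeq2 and 0 to 11 with 1 library left out. For curvature by number, 2048 became 4767 without the filter, 3256 by DESeq2 and 1 to 7359 with 1 library left out. In that last test, leaving out a flat library drops its whole number, so those fits compare fewer numbers. The causes were not tested.

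Log2 fold changes that were not called turned sign. Leaving out 1 library makes the replicate numbers unequal between plate shapes, and the main shape fits had no term for number. For concave over flat with 1 library left out, CCN1 ran from -0.788 to 1.216, CCN2 from -0.92 to 1.655, AJUBA from -0.082 to 0.295, LATS2 from -0.146 to 0.452, YAP1 from -0.097 to 0.551 and WWTR1 from -0.062 to 0.199. For convex over flat, CCN1 ran from -0.54 to 1.296, CCN2 from -0.671 to 1.809 and WWTR1 from -0.187 to 0.286. With numbers 1 and 2 alone, CCN1 for concave was -0.04 and WWTR1 for convex -0.038. With number as a block, CCN1 was 0.182 for concave and 0.341 for convex over flat, and CCN2 was 0.264 and 0.462. For number 3 over 1 and 2, TEAD1 ran from -0.362 to 0.295, TEAD2 from -0.24 to 0.02 and VGLL4 from -0.491 to 0.098; TEAD1 was also -0.089 by library size alone, -0.005 without the filter, -0.011 above 1 CPM, -0.022 by voom and -0.052 without a shape term. Concave over convex turned sign in 16 of 169 gene and setting pairs. CCN1 and CCN2 for number 3 kept their call in every setting tried. ANKRD1 rests on 5 to 46 reads per library, and the other 9 genes had at least 247.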
